A study of Mus musculus with 6 samples.

Results

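A set of 7 microRNAs (miRNAs) known best from white blood cells, miR-142a-3p, miR-142a-5p, miR-223-3p, miR-223-5p, miR-150-5p, miR-342-3p and miR-342-5p, was followed in extracellular vesicles of mouse brain. They were chosen by name, as 7 of the 1926 miRNAs listed and of the 775 detected, and all 7 were detected in all 6 libraries. Such vesicles bud from cells, are enclosed by a membrane and carry small RNAs. The study compared 2 groups of 3 libraries: SE, vesicles isolated from brain tissue of mice that had gone through status epilepticus, a prolonged seizure, and CON, vesicles from matched control mice. The series title gives 24 hr as the time. Strain, sex, age, the agent that set off the seizures and whether animals were pooled are not given in the sources used here, and the labels do not say that the replicates of a group came from separate animals, so each p-value reflects the spread between these libraries alone, which may be technical. The label of the material, vesicles, has no marker among miRNAs and was not checked.

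miRNAs are cut as pairs of arms, 5p and 3p, from a hairpin precursor. One arm or both are loaded into Argonaute proteins and direct them to messenger RNAs that pair with the seed, bases 2 to 8 of the miRNA. miR-142 is made across the blood lineage, from stem cells to macrophages, lymphocytes and microglia, and both of its arms are active. miR-223 is a myeloid miRNA, most abundant in neutrophils, that restrains granulocyte production and activation. miR-150 accumulates in mature lymphocytes and targets the transcription factor Myb. miR-342 lies in the gene Evl, which encodes a regulator of actin assembly that is made in leukocytes and also in neurons, so miR-342 is the member least tied to blood cells.

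Levels are given in RPM, reads per 1000000 reads assigned to the listed miRNAs. Depth ran from 6016533 to 10845434 miRNA reads per library in SE and from 5482407 to 6504884 in CON. In the deposited table the CON columns were sorted apart from the miRNA names. Each CON row was put back under its name through the base mean that the authors' fold change table gives for each miRNA, with 687 of 687 rows matched. All CON values below are under these names. Directions rest on the column labels, which no value here checks.

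The mature sequences are shown because the members are counted by arm and none of those shown shares its seed with another. 6 of the 7 were matched in RefSeq (GRCm38.p6), and they are printed 5′ to 3′ with the seed in capitals.
miR-342-3p: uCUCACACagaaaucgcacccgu
miR-342-5p: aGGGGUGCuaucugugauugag
miR-142a-3p: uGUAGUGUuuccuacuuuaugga
miR-142a-5p: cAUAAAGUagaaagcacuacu
miR-223-3p: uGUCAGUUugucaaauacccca
miR-223-5p: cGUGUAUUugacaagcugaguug
The 6 seeds were all different, and 0 other mature miRNAs of the 1738 in that RefSeq table carried any of them. All 3p arms shown begin with U, and the 5p arms begin with A or C. The G and C content ran from 33.3% for miR-142a-5p to 52.2% for miR-342-3p.

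The hairpins whose arms the results turn on are printed with both mature arms in capitals, since arm use is compared below.
Mir342: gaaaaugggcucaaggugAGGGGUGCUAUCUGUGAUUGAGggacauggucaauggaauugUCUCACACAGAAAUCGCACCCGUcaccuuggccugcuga
Mir142: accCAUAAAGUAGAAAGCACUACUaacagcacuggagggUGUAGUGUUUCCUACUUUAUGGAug
In GRCm38, Mir342 lies at chr12:108658620-108658718 on the plus strand, in an intron of Evl. Mir142 lies at chr11:87756864-87756927 on the plus strand, in an intron of the non-coding gene Mir142hg, and overlaps Mir142b on the other strand. Mir223 lies at chrX:96242817-96242926 on the plus strand, overlapping an exon of the non-coding gene F630028O10Rik. Mir150 lies at chr7:45121757-45121821 and overlaps no other gene in the GENCODE M21 annotation. The submitters' processing notes name mm9 as the build, so these positions serve to place the genes and were not used to count reads.

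The values of SE and CON libraries overlapped for all 7 members, as they did for most miRNAs. Of the 558 tested, 66 (11.8%) had values that did not overlap. None of the 7 passed the test of the difference, in which 4 of 558 miRNAs (0.717%) were called. miR-342-3p held most of their reads, while the miRNAs tied more closely to blood cells ran from 0.997 RPM for miR-223-5p to 52.9 RPM for miR-142a-5p. In arm use, the 3p share of the miR-342 reads was lower in every SE library than in every CON library, as it was for 6.12% of the 49 hairpins compared, with an exact permutation p of 0.1, the smallest that 3 against 3 libraries can give, so that this test could not reach 0.05.

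miR-342-3p was by far the most abundant of the 7 and the 54th of all detected miRNAs. It stood at 763, 550.0 and 714 RPM in SE replicates 1, 2 and 3, against 742, 843 and 873 RPM in CON replicates 1, 2 and 3. The highest SE library lay above the lowest CON library, so the groups overlapped, and SE replicate 2 was the lowest of all 6. The means were 676 ± 112 RPM in SE libraries, against 819 ± 68.6 RPM in CON libraries (SD, n = 3 each). The log2 fold change, SE over CON, was -0.29 (standard error 0.18, 95% interval -0.68 to 0.10), with an adjusted p of 0.815 by limma.

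The partner arm miR-342-5p pointed the other way. It stood at 129.8, 129.6 and 103 RPM in SE libraries, against 105, 105 and 72.7 RPM in CON libraries. SE replicate 3 lay among the CON values and CON replicate 3 was the lowest of all 6. The means were 120.8 ± 15.4 RPM in SE libraries, against 94.2 ± 18.6 RPM in CON libraries (SD, n = 3 each), and the log2 fold change was 0.37 (standard error 0.22, 95% interval -0.11 to 0.85), with an adjusted p of 0.781 by limma. It was the only member with a positive estimate, and with median-of-ratios scaling miR-142a-3p, miR-223-3p and miR-150-5p had positive estimates too, of 0.0096, 0.075 and 0.066.

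miR-150-5p, the lymphocyte member, was the 182nd miRNA by mean level. It stood at 38.4, 30.9 and 34.1 RPM in SE libraries, from 417, 186 and 228 reads, against 34.1, 27.9 and 45.8 RPM in CON libraries, from 191, 153 and 298 reads. All 3 SE values lay inside the range of the CON values. The log2 fold change was -0.04 (standard error 0.23, 95% interval -0.55 to 0.48), with an adjusted p of 0.990 by limma. On the fold scale of RPM + 1 the interval runs from 0.684 to 1.39. Its other arm, miR-150-3p, was at 0 in all 6 libraries, where a count of 0 allows up to 0.277 to 0.547 RPM per library, the level of 3 reads. The lowest value above 0 in each library stood for 2 reads, so a single read may be hidden in a 0, which would raise that limit.

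miR-142a-5p, the blood-lineage arm of higher level here, stood at 32.2, 41.2 and 32.3 RPM in SE libraries, against 52.9, 35.0 and 43.0 RPM in CON libraries. SE replicate 2 lay above CON replicate 2 and below the other CON libraries. The means were 35.2 ± 5.19 RPM in SE libraries, against 43.7 ± 8.96 RPM in CON libraries (SD, n = 3 each), with a log2 fold change of -0.29 (standard error 0.22, 95% interval -0.79 to 0.21) and an adjusted p of 0.928 by limma.

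miR-142a-3p varied more between libraries of a group than between groups. It stood at 13.6, 10.5 and 4.93 RPM in SE libraries, from 148, 63 and 33 reads, against 7.51, 6.93 and 16.4 RPM in CON libraries, from 42, 38 and 107 reads. The highest library was 2.77 times the lowest in SE and 2.37 times the lowest in CON. The exact 95% Poisson intervals were 11.5 to 16.0 RPM in SE replicate 1 and 3.40 to 6.93 RPM in SE replicate 3, and such intervals cover counting error only, with each read taken as 1 molecule. The log2 fold change was -0.08 (standard error 0.39, 95% interval -0.94 to 0.78), with an adjusted p of 0.990 by limma. miR-142b, from the other strand of the same site, was at 0 in all libraries.

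miR-223-3p, the neutrophil and platelet miRNA, stood at 8.94, 5.15 and 4.63 RPM in SE libraries, from 97, 31 and 31 reads, against 11.4, 3.47 and 5.38 RPM in CON libraries, from 64, 19 and 35 reads. CON replicates 1 and 2 were the highest and the lowest of all 6, and the SE values lay between them. The log2 fold change was -0.01 (standard error 0.39, 95% interval -0.88 to 0.85), with an adjusted p of 0.997 by limma. Its partner arm miR-223-5p was the lowest member, with 14, 6 and 10 reads in SE libraries and 17, 6 and 16 reads in CON libraries. These reads gave 1.29, 0.997 and 1.49 RPM in SE libraries, against 3.04, 1.09 and 2.46 RPM in CON libraries, and the groups overlapped. At 6 to 17 reads per library its log2 fold change of -0.45 has a 95% interval of -1.50 to 0.59, with an adjusted p of 0.952 by limma.

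**Figure D1:**
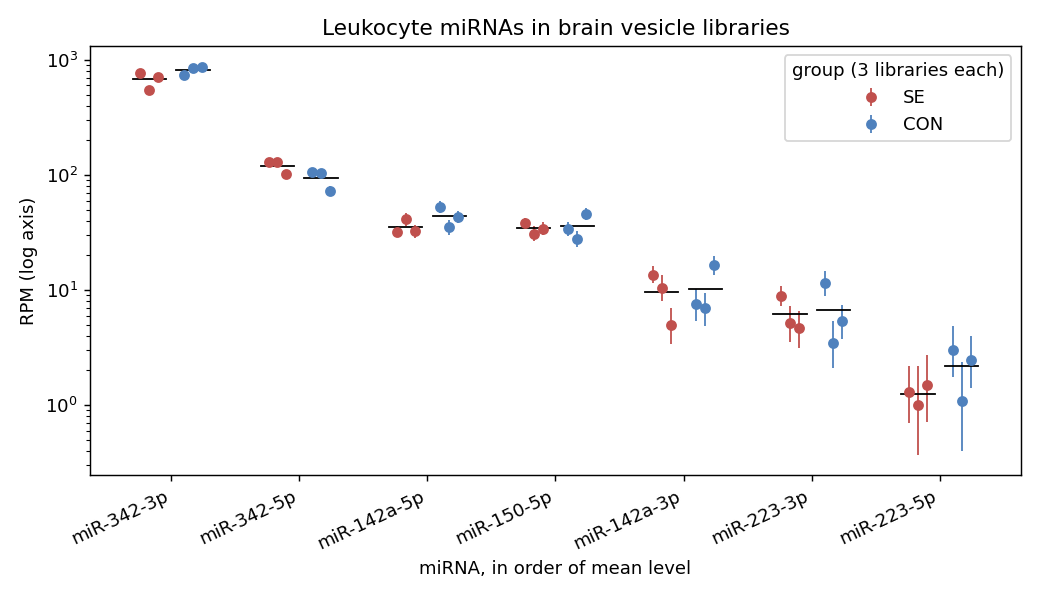
RPM of each member in each library on a log axis, SE libraries left of CON libraries, in order of mean level. Points are libraries in the order of replicates 1 to 3, vertical bars are exact 95% Poisson intervals of the reads, and black lines are group means. The SE and CON points overlap for all 7 miRNAs, which span from about miR-223-5p at 1.73 RPM to miR-342-3p at 747 RPM over the 6 libraries.

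The 4 calls over all miRNAs were 1 higher and 3 lower in SE libraries, and held no member. The test was limma-trend on log2(RPM + 1) for all miRNAs whose mean over the libraries reached 1 RPM, and on this scale the change of low miRNAs is understated. A call is a two-sided Benjamini-Hochberg adjusted p under 0.05 over all 558. At an unadjusted p under 0.05 there were 0 members, and 35 miRNAs in all. 0 of the 7 had SE and CON values that did not overlap, against 66 of the 558 tested (11.8%). The median log2 fold change of the 7 was -0.08, beside -0.04 over all tested. A p that misses the threshold does not show equal levels, and the 95% intervals of the 4 members above 10 RPM lay within -0.79 to 0.85 on the log2 scale. limma-voom on the recovered reads called 0 members, and 2 miRNAs in all.

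**Figure D2:**
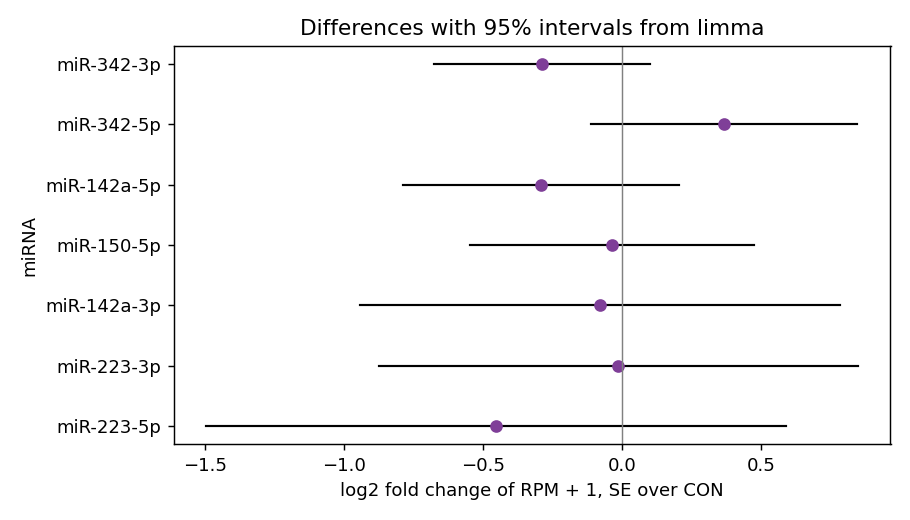
log2 fold change of RPM + 1, SE over CON, for each member (points) with its 95% interval from limma (lines), in order of mean level from the top. All 7 intervals include 0, the narrowest being that of miR-342-3p at -0.68 to 0.10 and the widest that of miR-223-5p at -1.50 to 0.59.

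The authors' deposited table also holds all 7 members. It does not name its direction, and a positive value in it stands for a higher level in CON, since its reference group matched the SE columns. In the authors' deposited table miR-342-5p had the smallest p of the 7, with a log2 fold change of -0.46 (standard error 0.21), a p of 0.0286 and an adjusted p of 0.817. The adjusted p of the other 6 in the authors' deposited table ran from 0.975 to 0.991. The authors' deposited table called 8 of 772 miRNAs (1.04%), and 0 members. It is not independent of the values above, since the CON rows were named through it.

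The order of levels was miR-342-3p, miR-342-5p, miR-142a-5p, miR-150-5p, miR-142a-3p, miR-223-3p and miR-223-5p. The miRNAs are 21 to 23 bases long where matched, so RPM were compared without a length term, and differences in how well each is ligated were not measured. miR-342-3p averaged 6.95 times miR-342-5p, which averaged 2.73 times miR-142a-5p, and the ranges of neither pair overlapped over the 6 libraries. miR-142a-5p and miR-150-5p could not be ordered, with miR-142a-5p the higher in 1 of 3 SE and 2 of 3 CON libraries. miR-142a-3p exceeded miR-223-3p in 5 of 6 libraries, but their ranges overlapped. miR-223-3p averaged 3.76 times miR-223-5p and was the higher in all 6.

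Summed, the 7 came to 987, 768 and 895 RPM in SE libraries, against 956, 1022 and 1058 RPM in CON libraries. miR-342-3p made up 71.6% to 79.8% of that sum in SE and 77.6% to 82.5% in CON libraries. Without both miR-342 arms the sum was 94.5, 88.8 and 77.4 RPM in SE libraries, against 109, 74.4 and 113 RPM in CON libraries. The 5 remaining members averaged 86.9 RPM together in SE libraries, where miR-342-5p averaged 120.8 RPM, and 98.9 RPM together in CON libraries, where miR-342-5p averaged 94.2 RPM. The SE values lay inside the CON range for this smaller sum. In vesicles of a whole tissue, fewer vesicles from a cell type and less of a miRNA per vesicle cannot be told apart.

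Both miR-342 arms are cut from one hairpin, and their ratio does not depend on how a library is scaled. The 3p arm took 85.5%, 80.9% and 87.4% of the miR-342 reads in SE replicates 1, 2 and 3, against 87.6%, 89.0% and 92.3% in CON replicates 1, 2 and 3. Every SE library lay below every CON library, although SE replicate 3 and CON replicate 1 were close, with exact 95% Clopper-Pearson intervals of 86.5% to 88.3% in SE replicate 3 and 86.6% to 88.5% in CON replicate 1. The mean share was 84.6% ± 3.32 in SE and 89.6% ± 2.44 in CON libraries (SD, n = 3 each), a difference of -5.01 percentage points. An exact permutation test over the libraries gave a two-sided p of 0.1. It was 0.3 after adjustment over the 3 hairpins tested.

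The miR-342 difference was then set beside other hairpins. Of the 49 hairpins with both arms at a mean of at least 10 RPM, 4 (8.16%) had 3p shares that did not overlap between SE and CON libraries, and 3 (6.12%) were lower in every SE library. Of the 128 with both arms at a mean of at least 1 RPM these were 12 (9.38%) and 10 (7.81%). limma on the log2 ratio of 3p to 5p over the 49 gave miR-342 a log2 difference of -0.65 (standard error 0.30) with an unadjusted p of 0.0474 and an adjusted p of 0.464, the 5th smallest p. That fit called 1 of 49 hairpins (2.04%), miR-872. Fitted over the 128 hairpins instead, miR-342 had an unadjusted p of 0.0767 and an adjusted p of 0.620 by limma. Single libraries carried part of the miR-342 difference, which was -3.18 points without SE replicate 2 and -3.66 without CON replicate 3. The log2 difference was -0.46 without SE replicate 2 and -0.43 without CON replicate 3. With 1 library left out, its unadjusted p ran from 0.0232 to 0.205 by limma.

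**Figure D3:**
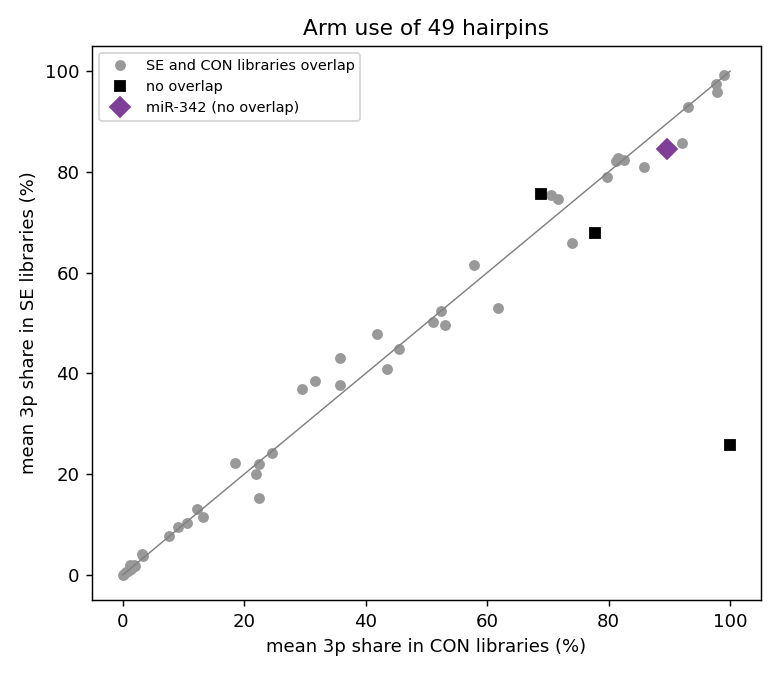
Mean share of the 3p arm among the reads of both arms, in SE libraries (vertical axis, %) against CON libraries (horizontal axis, %), for 49 hairpins. Grey circles are hairpins whose SE and CON libraries overlap, black squares and the purple diamond (miR-342) those whose libraries do not, and the line marks equal shares. miR-342, at 84.6% in SE and 89.6% in CON, lies below the line, and the black square far below it is miR-872.

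In miR-142a the 5p arm led. The 3p arm took 29.8%, 20.3% and 13.3% of the miR-142a reads in SE libraries, against 12.4%, 16.5% and 27.6% in CON libraries. The 5p arm exceeded the 3p arm in all 6 libraries, by 2.36 to 6.55 times in SE and 2.62 to 7.05 times in CON libraries. The groups overlapped through most of their range, and the mean shares were 21.1% ± 8.29 in SE and 18.9% ± 7.88 in CON libraries (SD, n = 3 each), with an exact two-sided permutation p of 0.7. The Clopper-Pearson intervals, which cover counting error only, were 25.8% to 34.0% in SE replicate 1 and 9.30% to 18.1% in SE replicate 3.

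For miR-223 the 3p arm led in all libraries. It took 87.4%, 83.8% and 75.6% of the miR-223 reads in SE libraries, against 79.0%, 76.0% and 68.6% in CON libraries. SE replicate 3 lay among the CON values. The mean shares were 82.3% ± 6.03 in SE and 74.5% ± 5.34 in CON libraries (SD, n = 3 each), with an exact two-sided permutation p of 0.3, or 0.45 adjusted over the 3 hairpins. With 25 to 111 reads per library, the intervals were wide, such as 54.9% to 90.6% in CON replicate 2, and exceeded the difference of 7.71 points.

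**Figure D4:**
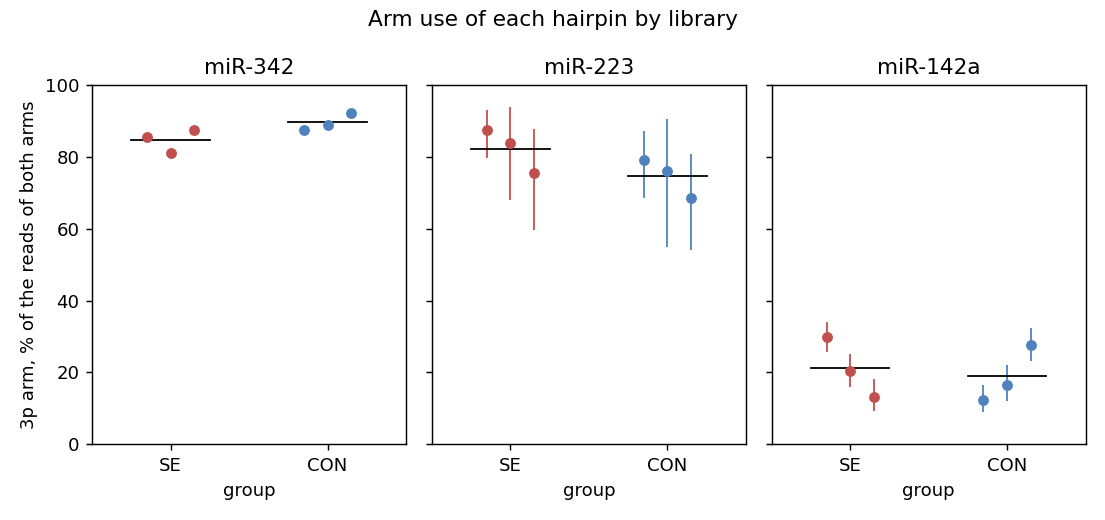
Share of the 3p arm among the reads of both arms (%), for miR-342, miR-223 and miR-142a, SE libraries left of CON libraries. Points are libraries in the order of replicates 1 to 3, vertical bars exact 95% Clopper-Pearson intervals and black lines group means. The miR-342 points do not overlap between groups (80.9% to 87.4% in SE, 87.6% to 92.3% in CON), while those of miR-223 and miR-142a do.

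Across the 6 libraries the 5 members other than the miR-342 arms had positive correlations in 10 of 10 pairs, from 0.13 to 0.73. Pairs that held a miR-342 arm had values of either sign. The count over these 5 alone was not planned, and positive pairs among other miRNAs were not counted. It does not set the 5 apart as a group. These values describe 6 libraries that share scaling, and carry no p. Pearson's r of log2(RPM + 1) was 0.73 for miR-142a-5p with miR-223-5p, 0.69 for miR-142a-3p with miR-150-5p and 0.59 for the 2 arms of miR-223. It was 0.16 for the 2 arms of miR-142a and 0.24 for miR-142a-3p with miR-223-3p. The 2 arms of miR-342 had an r of -0.67, and miR-342-5p had negative values with every member except miR-223-3p, at 0.22.

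The miRNAs most like miR-142a-3p, miR-223-3p, miR-150-5p and miR-342-3p were looked for among 286 others with a mean of at least 10 RPM, so the highest r of 286 is high by selection. miR-142a-3p was closest to miR-449a-5p and miR-466i-5p, with r of 0.95 for both. miR-223-3p was closest to miR-337-3p (r of 0.94) and miR-3082-5p (r of 0.91). miR-150-5p was closest to miR-137-3p (r of 0.95) and miR-143-3p (r of 0.93). miR-342-3p was closest to miR-15b-5p (r of 0.96) and miR-103-3p/107-3p (r of 0.96), which is a merged name of miRNAs counted together.

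Of other leukocyte and microglia miRNAs, 3 were lower in SE than in CON libraries, as the columns are labelled. Of 18 listed, 15 were detected and 14 tested, of which 0 were called higher and 3 called lower in SE libraries. The 4 of 558 called over all miRNAs include these same 3, so that count is not a separate background. Both arms of miR-21a are among the 3. Estimates were negative for 13 of the 14, and for 11 of the 14 with median-of-ratios scaling. The median over all miRNAs tested was -0.04, and 0.042 with that scaling. The share of negative estimates over all miRNAs tested was not counted, so these counts have no background beside them. The list was written with earlier results of these data known and so is not independent evidence of its direction. Which cells its miRNAs come from in these libraries was not tested, so its counts and medians do not measure leukocyte or microglial content. miR-155-5p, which is induced in activated macrophages, microglia and lymphocytes, averaged 25.3 ± 3.52 RPM in SE libraries, against 105 ± 5.84 RPM in CON libraries (SD, n = 3 each), a log2 fold change of -2.02 (standard error 0.20) with an adjusted p of 2.5e-04 by limma. miR-21a-5p, induced in reactive glia and injured tissue, averaged 33.8 ± 2.11 RPM in SE libraries, against 116 ± 32.5 RPM in CON libraries (SD, n = 3 each), a log2 fold change of -1.72 with an adjusted p of 0.00287 by limma. Its partner arm miR-21a-3p was at 0 in all SE libraries and at 7.15 to 12.9 RPM in CON libraries. With each SE library set at a floor of 3 reads, on average 0.408 RPM, the CON mean of 9.30 RPM was 22.8 times the SE level. That ratio is not a strict bound, since a single read may be hidden in a 0 and the CON libraries varied. miR-155-5p passed with each library left out in turn and with limma-voom. miR-21a-5p missed the threshold without SE replicate 2, with an adjusted p of 0.0543 by limma, and with the replicate block, with an adjusted p of 0.0532. miR-21a-3p missed it with limma-voom, with an adjusted p of 0.402.

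The 7 members had smaller estimates than the 3 called miRNAs of this list, which were singled out because they passed. The contrast follows in part from that choice. Entries of the list that were not called ran from -0.69 to 0.65, a range that holds the estimates of all 7 members. The 95% intervals of miR-142a-5p, miR-150-5p, miR-342-3p and miR-342-5p all lay above -0.79 on the log2 scale, while miR-155-5p and miR-21a-5p had estimates of -2.02 and -1.72. The intervals of the lower members reached further, to -0.94 for miR-142a-3p, -0.88 for miR-223-3p and -1.50 for miR-223-5p. The difference between these miRNAs was not itself tested. miR-146a-5p, which is induced by NF-kappaB signalling and was named after its values were seen, was the 1 of the 14 with a positive estimate on the deposited scale. It averaged 33.5 ± 3.69 RPM in SE libraries, against 21.6 ± 7.20 RPM in CON libraries (SD, n = 3 each), and the groups overlapped. Its log2 fold change was 0.65 (standard error 0.25), with an unadjusted p of 0.0264 and an adjusted p of 0.595 by limma. miR-146b-5p of the same list, also named after its values were seen, went the other way. It averaged 24.8 ± 4.54 RPM in SE libraries, against 40.1 ± 2.60 RPM in CON libraries (SD, n = 3 each), without overlap. The log2 fold change of miR-146b-5p was -0.69, with an unadjusted p of 0.00868 and an adjusted p of 0.387 by limma. The most abundant of the list, miR-191-5p, averaged 11651 ± 992 RPM in SE libraries, against 15016 ± 624 RPM in CON libraries (SD, n = 3 each), a log2 fold change of -0.37 with an adjusted p of 0.387 by limma. miR-16-5p, also abundant in red cells, and miR-24-3p followed, with log2 fold changes of -0.29 and -0.12 and adjusted p of 0.605 and 0.952 by limma. The median log2 fold change of the 14 tested was -0.41, also with miR-21a-3p set at its floor, beside -0.04 over all tested. 7 of the 14 had SE and CON values that did not overlap, all lower in SE libraries, beside 11.8% of all miRNAs tested, counted in either direction. Both arms of miR-21a are among the 7, and the list was written with earlier results of these data known.

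**Figure D5:**
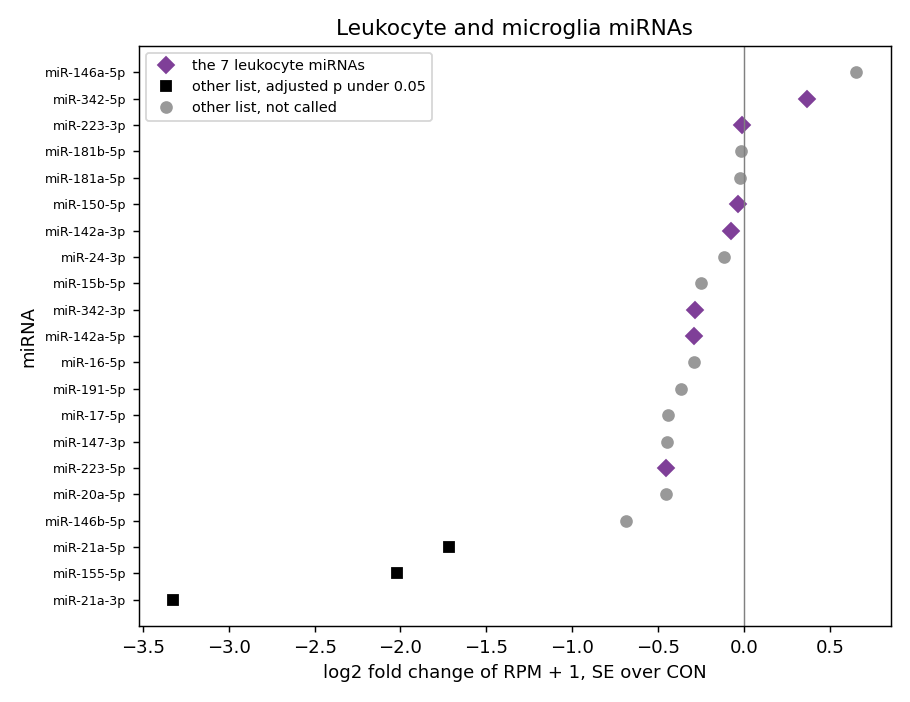
log2 fold change of RPM + 1, SE over CON, for the 7 members (purple diamonds) and the 14 tested miRNAs of the other leukocyte and microglia list (black squares where called by limma at an adjusted p under 0.05, grey circles where not). The members lie between -0.45 and 0.37, and the 3 called miRNAs of the other list at -1.72 or below. Those of the other list that were not called lie between -0.69 and 0.65.

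Markers of other cells were read in the same libraries, and their part in the levels of the members was not tested. Of the red cell list, miR-451a gave no SE reads and 0 to 0.922 RPM in CON libraries, and miR-144-3p and miR-144-5p were at 0 in all 6. miR-486a-5p/486b-5p, a merged name, averaged 24.8 ± 7.71 RPM in SE libraries, against 25.4 ± 5.43 RPM in CON libraries (SD, n = 3 each). The summed red cell list ran from 16.8 to 35.4 RPM in SE and 20.02 to 31.5 RPM in CON libraries, and 0 of its 2 tested members passed. miR-126a-3p, made by endothelium and found in platelets, averaged 4003 ± 357 RPM in SE libraries, against 4811 ± 716 RPM in CON libraries (SD, n = 3 each), and 0 of 2 tested members of that list passed. The neuron list summed to 24421 to 29569 RPM in SE and 27278 to 31924 RPM in CON libraries, with 0 of 8 tested members called and a median log2 fold change of -0.15, negative for 5 of the 8. It was led by miR-9-5p, miR-128-3p and miR-138-5p, with log2 fold changes of -0.24, -0.33 and 0.14. miR-124-3p averaged 2344 ± 666 RPM in SE libraries, against 2071 ± 362 RPM in CON libraries (SD, n = 3 each). Its log2 fold change was 0.16, with an adjusted p of 0.960 by limma.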

How the data were processed

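The authors deposited RPM values, reads scaled to 1000000 assigned to the listed miRNAs, for 6 libraries. Per the labels' protocols, the QIAseq miRNA kit was used for library preparation. Per the submitters' processing notes, DESeq2 and the build mm9 were used. The aligner, counter and use of molecular identifiers are not given in the sources used here. The authors' deposited table, per the file headers, holds a base mean of normalized signal, a log2 fold change, a Wald score and p-values.

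Each RPM value was a whole multiple of 1 read within 0.01 reads, taking the lowest value of a column as 2 reads. CON rows were renamed by matching 6 times the base mean minus normalized SE reads to the rows of the CON columns (relative tolerance 1e-05). Of 687 rows, 597 had 1 candidate and 90 several with identical reads, and 665 changed name.

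limma 3.58.1 (R 4.3.3) tested log2(RPM + 1) at a mean of at least 1 RPM. It was also run on simulated counts for 558 miRNAs, 200 of them changed per run. The dispersion was set at 0.04, not estimated from these libraries. On these counts limma recovered 51.4% of 2-fold changes under 10 RPM and 89.4% over 10 RPM, and called 1.62% of unchanged miRNAs. These rates do not carry over to members that vary more, such as miR-142a-3p (10.3 ± 5.34 RPM in CON libraries, SD, n = 3), or to data where fewer miRNAs change. Shares used exact permutation tests (scipy 1.17.1). Correlations and figures used Python 3.11.15. The members, lists and rules were chosen with earlier results of these data known: all 7 members are named, with passing list members or otherwise the 3 most abundant, and the 2 miRNAs most like each of 4 members. miR-451a, miR-126a-3p and miR-124-3p are named as well. The arm ratio by limma, limma-voom and the arm shares with names as deposited were chosen after seeing the data. Other alternatives were the pseudocount, filter, scaling, replicate block and each library left out.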

Additional observations from a re-analysis of the deposited data

How the results depend on the processing

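No member passed the limma threshold under any alternative run, so the directions below belong to values that were not called, and the cause of each change was not tested. The 4 calls over all miRNAs were 2 with limma-voom (miR-155-5p and miR-21a-5p) and 0 with each CON row left under its deposited name, where 2 miRNAs had an unadjusted p under 0.05, and 3 to 6 with 1 library left out. With median-of-ratios scaling the log2 fold change turned to 0.0096 for miR-142a-3p, 0.075 for miR-223-3p and 0.066 for miR-150-5p, and with limma-voom to 0.062 for miR-223-3p. With 1 library left out it ran from -0.36 to 0.30 for miR-142a-3p, -0.35 to 0.39 for miR-223-3p, -0.20 to 0.15 for miR-150-5p, -0.44 to -0.15 for miR-142a-5p, -0.73 to -0.26 for miR-223-5p, -0.38 to -0.15 for miR-342-3p and 0.19 to 0.48 for miR-342-5p. With the names as deposited miR-223-5p was at 0.39, miR-342-5p at 0.017, the miR-223 share difference at -3.80 points and that of miR-342 at -2.71 points (exact permutation p of 0.4). The share difference ran from -2.11 to 6.62 points for miR-142a, 4.75 to 11.04 for miR-223 and -6.42 to -3.18 for miR-342 with 1 library left out. The summed RPM differed by -129 (SE minus CON), by -181 to -71.0 with 1 library left out, by -62.7 with median-of-ratios scaling and by -11.97 without both miR-342 arms. Deviations of same-numbered libraries correlated at -0.07, -0.01 and -0.04. These values do not settle whether replicate numbers pair the samples, and the labels do not say. With the replicate block 3 miRNAs were called over all, 0 of them members, miR-21a-5p had an adjusted p of 0.0532, and the miR-342 share difference of -5.01 points had an exact p of 0.25, the smallest 3 pairs allow. The exact p with the block was also 0.25 for the miR-223 share difference, and 0.75 for that of miR-142a. The filter at 10 RPM left miR-142a-3p and both miR-223 arms untested. edgeR on recovered reads was not run. miR-223-5p rested on 6 to 17 reads per library and the miR-223 shares on 25 to 111.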
